A study of Mus musculus with 18 samples.

Results

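The LPS receptor complex and its adaptors were followed here as 10 genes, namely Tlr4, Ly96, Cd14, Cd180, Ly86, Myd88, Ticam1, Irak4, Irak3 and Traf6. They were taken by name from the 16545 genes of an expression table of mouse splenic B cells, and all 10 were found in it. Values are FPKM, the fragments mapped to a gene divided by its length and by the sequencing depth of the library, so that levels can be set beside each other between genes. The 18 RNA libraries came from purified B cells, taken before culture (0 h) or cultured with LPS for 24 h or 48 h. B-CKO mice were C57BL/6 animals with both Zbtb24 alleles floxed around exon 2 and a Cre allele active in B cells, and controls were, per the study's methods, littermates with the same Cre allele and intact Zbtb24. A B cell marker not reported here was lower in every B-CKO than in every control library at each time, so whether the genotypes differ in Zbtb24 alone was not tested. Each of the 6 groups (control or B-CKO at 0 h, 24 h or 48 h) held 3 libraries from 1 mouse each, numbered 1 to 3 in the labels. Whether a number of 1 genotype marks the same mouse at all 3 times is not stated in the sources used here, and the tests over time treat the libraries as unpaired. All cultured cells received LPS, so time in culture and LPS cannot be told apart. The LPS dose of these cultures was not given in the sources used here.

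LPS is brought by the serum protein LBP to CD14, which is anchored in the cell membrane and hands it on to MD-2 (Ly96), which sits on the ectodomain of the Toll-like receptor TLR4. B cells carry in addition CD180 (RP105), a relative of TLR4 without the intracellular signalling domain, which pairs with MD-1 (Ly86) as TLR4 pairs with MD-2. Inside the cell the signal runs through the adaptor MyD88 to the kinase IRAK4 and the ubiquitin ligase TRAF6, or through the adaptor TRIF (Ticam1), and IRAK-M (Irak3), an IRAK with little kinase activity, acts as a brake.

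Libraries of 1 group correlated at 0.986 to 0.999 across genes on the log2(FPKM + 1) scale. Read totals were not in the table. Steps between low values put the relative depth at 0.876 to 0.914 at 0 h, 1.05 to 1.07 at 24 h and 1.01 to 1.07 at 48 h, but only 19 of 48 low genes fell into such steps, so these are rough. Zbtb24 was at 37.05 to 49.62 FPKM in control and 10.53 to 14.33 FPKM in B-CKO libraries at 0 h, and the genotypes did not overlap at 24 h (15.68 to 18.77 against 10.39 to 11.66 FPKM) or 48 h (13.42 to 17.11 against 9.23 to 11.34 FPKM). These gene-level values also take in exons that the deletion leaves in place, so they do not measure the deletion itself. The B cell genes Cd79a (1790 to 2270 FPKM at 0 h, 642 to 746 FPKM at 24 h and 814 to 1032 FPKM at 48 h) and Pax5 (195 to 272, 135 to 156 and 87.03 to 107 FPKM) were high in all 18 libraries and lower in culture. The sum of 7 B cell markers (Ms4a1, Cd79a, Cd79b, Pax5, Cd22, Cr2 and Fcer2a) was 3913 to 5293 FPKM at 0 h, 1999 to 2317 FPKM at 24 h and 2258 to 2636 FPKM at 48 h. The 15 myeloid markers summed to 11.9 to 20.5 FPKM at 0 h, 6.74 to 9.07 FPKM at 24 h and 8.44 to 13.7 FPKM at 48 h, with the receptor Fcgr1 at no more than 0.05 FPKM anywhere and C1qa, C1qc and Mertk at 0 in all libraries at 24 h and 48 h. Of that list Itgam was at 0.63 to 1.28 FPKM at 0 h and 2.99 to 6.03 FPKM at 48 h, and Cd68 was at 4.84 to 5.96 FPKM at 0 h and 4.54 to 6.61 FPKM at 48 h. T cell markers summed to at most 13.2 FPKM at 0 h and 0.97 FPKM at 48 h, NK cell markers to at most 0.98 FPKM at 0 h, and erythroid markers to 6.61 to 46.3 FPKM at 0 h and at most 1.27 FPKM at 48 h. The sum of the dendritic cell markers went the other way, from at most 4.17 FPKM at 0 h to 23.7 to 32.3 FPKM at 48 h. Only Flt3 rose, from 0.94 to 2.85 FPKM at 0 h to 23.2 to 31.9 FPKM at 48 h. The other 4 of the 5 genes stayed under 1 FPKM and did not rise. Of these, Itgax went from 0.34 to 0.56 FPKM at 0 h to 0.01 to 0.08 FPKM at 48 h. The part of these cells in the results below was not tested. In bulk RNA, fewer cells of a type and less RNA per cell cannot be told apart.

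The 10 genes spanned a wide range of levels. In resting control cells, Ly86 (180 ± 23.3 FPKM, SD, n = 3) and Cd180 (175 ± 30.6 FPKM, SD, n = 3) stood highest and within each other's range. Both lay above 97.8% of all genes in the table. Myd88 followed at 23.0 ± 0.32 FPKM (SD, n = 3), apart from the genes on either side of it. Irak3 (16.6 FPKM), Traf6 (16.2 FPKM), Ticam1 (12.8 FPKM) and Irak4 (11.7 FPKM) formed a middle group in which neighbours overlapped. Ly96 (3.73 ± 0.99 FPKM, SD, n = 3) and Tlr4 (1.79 ± 1.23 FPKM, SD, n = 3) came next and overlapped each other, and Cd14 was last at 0.063 FPKM. The order at 0 h was the same in B-CKO cells. At 24 h of LPS, Ly86 no longer overlapped Cd180 in either genotype. Ticam1 had moved above Irak3 and Traf6, and no longer overlapped Irak4, which it already exceeded in the mean at 0 h. At 48 h the order from Ly86 through Cd180, Myd88, Ticam1 and Irak3 had no overlap between neighbours in either genotype, while Irak4 and Traf6 overlapped.

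**Figure D1:**
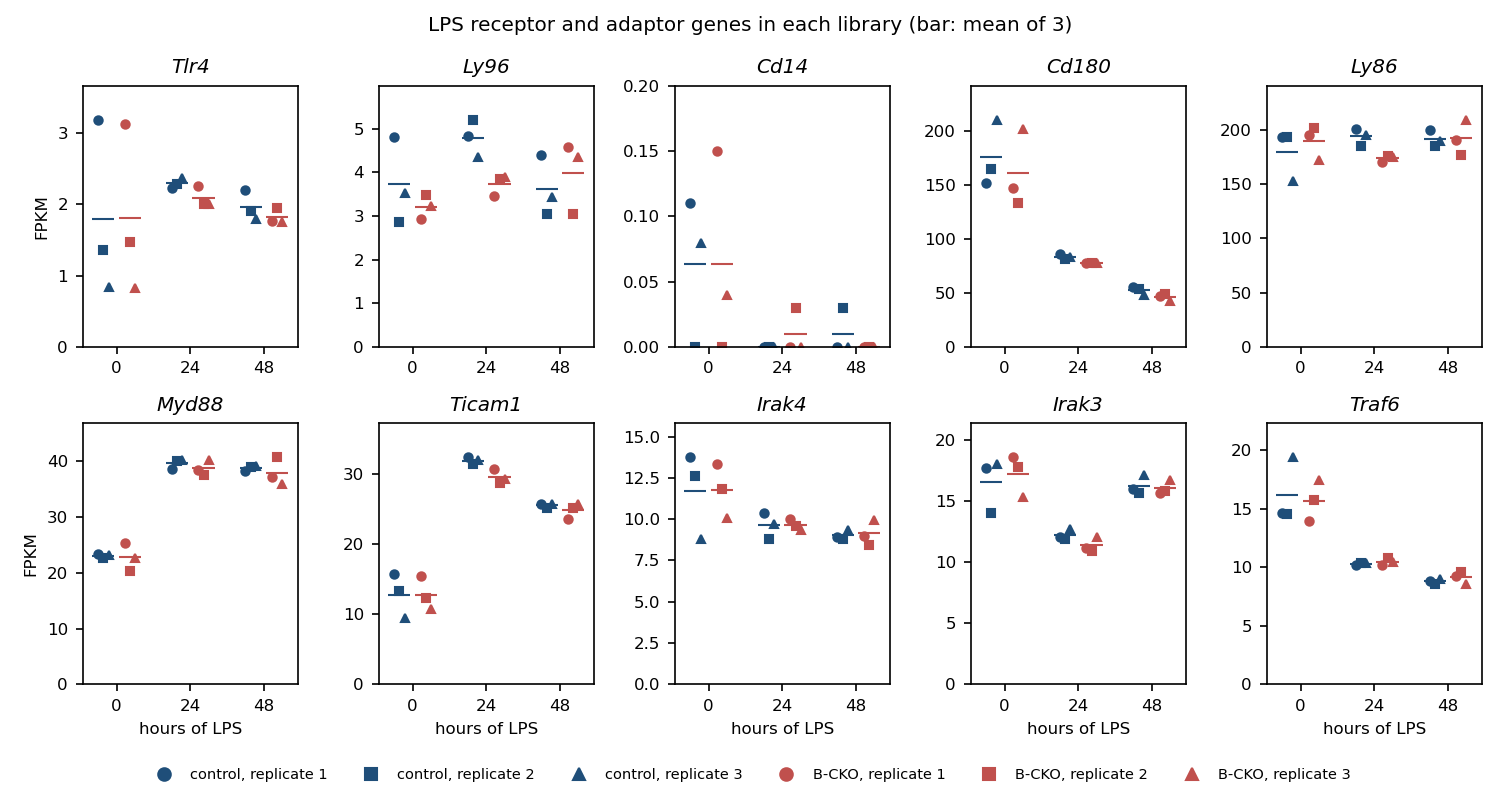
FPKM (vertical axes, linear from 0, a scale for each gene) of the 10 genes against hours of LPS, with 1 point per library, blue for control, red for B-CKO, the symbol for the replicate number and a bar for the mean of 3. Cd180 falls at each step, Myd88 and Ticam1 stand higher at 24 h and 48 h than at 0 h, and Tlr4 is spread from 0.82 to 3.18 FPKM at 0 h.

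Tlr4, the signalling receptor (NCBI gene 21898, chr4:66827551-66846581 in GRCm38.p6, the build used for all positions here), was low throughout. Control libraries held 3.18, 1.36 and 0.84 FPKM at 0 h, 2.23, 2.28 and 2.37 FPKM at 24 h, and 2.20, 1.90 and 1.79 FPKM at 48 h. B-CKO libraries held 3.13, 1.47 and 0.82 FPKM at 0 h, 2.26, 2.00 and 2.00 FPKM at 24 h, and 1.77, 1.94 and 1.75 FPKM at 48 h. In both genotypes library 1 stood above, and libraries 2 and 3 below, every cultured library of their genotype at 0 h, while the cultured libraries lay close together. The log2 fold change from 0 h to 24 h was 0.33 ± 0.29 (SE) in control cells (limma, adjusted p = 0.387) and 0.22 ± 0.29 (SE) in B-CKO cells (limma, adjusted p = 0.538), so neither differed from 0 beyond the spread of the resting libraries. These calls turned on library 1. Without control library 1 at 0 h the change in control cells was 0.66 (limma, adjusted p = 0.00676), and without B-CKO library 1 at 0 h the change in B-CKO cells was 0.54 (limma, adjusted p = 0.0243). Over 17 alternatives the adjusted p ran from 0.00676 to 0.902 in control and from 0.0243 to 0.939 in B-CKO cells. From 0 h to 48 h Tlr4 changed by 0.17 in control cells (limma, adjusted p = 0.651), or by 0.51 without control library 1 at 0 h (limma, adjusted p = 0.0240). In B-CKO cells it changed by 0.09 (limma, adjusted p = 0.802), and by -0.18 to 0.42 over 17 alternatives (limma, adjusted p of at least 0.0593). From 24 h to 48 h it changed by -0.15 in control cells (limma, adjusted p = 0.127), or by -0.21 without control library 1 at 48 h (limma, adjusted p = 0.0410), and by -0.13 in B-CKO cells (limma, adjusted p = 0.176).

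Ly96, which encodes the LPS-binding subunit MD-2 (NCBI gene 17087, chr1:16688456-16709605), was also low, and had fewer than 6 FPKM in all 18 libraries. Control libraries held 4.80, 2.86 and 3.53 FPKM at 0 h, 4.83, 5.2 and 4.35 FPKM at 24 h, and 4.39, 3.05 and 3.43 FPKM at 48 h. B-CKO libraries held 2.93, 3.49 and 3.22 FPKM at 0 h, 3.46, 3.84 and 3.90 FPKM at 24 h, and 4.58, 3.05 and 4.36 FPKM at 48 h. Control values at 24 h overlapped those at 0 h and at 48 h. The log2 change from 0 h to 24 h was 0.31 ± 0.17 (SE) in control cells (limma, adjusted p = 0.164), and 0.47 without control library 1 at 0 h (limma, adjusted p = 0.0194). Between 24 h and 48 h it was -0.33 ± 0.12 (SE) in control cells (limma, adjusted p = 0.0588). Without control library 1 at 48 h this change was -0.45 (limma, adjusted p = 0.0125), and it also passed when only genes averaging 1 FPKM or more were tested (adjusted p = 0.0148), with a range of 0.00524 to 0.327 over 17 alternatives. In B-CKO cells the same step was 0.07 ± 0.13 (SE) (limma, adjusted p = 0.725). Over 17 alternatives this B-CKO change ran from -0.06 to 0.23 (limma, adjusted p of at least 0.0681). The B-CKO change from 0 h to 48 h was 0.23 ± 0.15 (SE) (limma, adjusted p = 0.239), and 0.38 without B-CKO library 2 at 48 h (limma, adjusted p = 0.0487).

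Cd14, the co-receptor that monocytes and macrophages carry at high levels, was above 0 in 6 of 18 libraries. The resting control libraries held 0.11, 0 and 0.08 FPKM and the resting B-CKO libraries 0.15, 0 and 0.04 FPKM. At 24 h only B-CKO library 2 was above 0 (0.03 FPKM), and at 48 h only control library 2 (0.03 FPKM). If the smallest value stands for 1 fragment, the libraries above 0 held 1 to 4 fragments each and 12 in all, so no level can be set beside another. The summed myeloid markers at 0 h were 18.8, 11.9 and 13.9 FPKM in control libraries 1 to 3 and 16.9, 14.0 and 20.5 FPKM in B-CKO libraries 1 to 3, and their part in the Cd14 values was not tested.

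The ratio of Ly96 to Tlr4, the subunits of the LPS receptor, spanned 0.938 to 3.86 over the 6 resting libraries, 1.51 to 2.23 at 24 h and 1.54 to 2.50 at 48 h, each as (FPKM + 0.1) over (FPKM + 0.1). The resting range enclosed the cultured ones. Neither the step to 24 h (log2 change -0.16, 3 of 6 same-numbered pairs higher, exact permutation p = 0.655, adjusted p = 0.749) nor that to 48 h (0.04, 3 of 6 pairs higher, exact permutation p = 0.81) passed. Leaving out 1 library at a time, the first of these ran from -0.43 to 0.05 (exact permutation, adjusted p = 0.189 to 0.935). Permutations were two-sided, within genotype, with 400 arrangements and a smallest possible p of 0.005, and p-values were adjusted over 8 ratio tests.

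Cd180 fell at each step, and more than any other of the 10 genes. Control libraries held 151.39, 164.69 and 209.71 FPKM at 0 h, 85.81, 81.48 and 83.03 FPKM at 24 h, and 55.14, 53.28 and 48.13 FPKM at 48 h. B-CKO libraries held 147.30, 132.56 and 201.42 FPKM at 0 h, 77.97, 77.87 and 77.95 FPKM at 24 h, and 47.49, 48.52 and 42.65 FPKM at 48 h. No library of one time overlapped any library of another time, in either genotype. From 0 h to 24 h the log2 change was -1.05 ± 0.12 (SE) in control cells (limma, adjusted p = 0.000495) and -1.01 ± 0.15 (SE) in B-CKO cells (limma, adjusted p = 0.00126). From 24 h to 48 h it was -0.67 ± 0.05 (SE) and -0.74 ± 0.05 (SE) (limma, adjusted p = 0.000141 and 5.5e-05). Over 48 h Cd180 was 3.29-fold lower in control and 3.37-fold lower in B-CKO cells on the (FPKM + 1) scale. The summed B cell markers fell over the first step as well, as given above, and their part in the Cd180 change was not tested. The 6 calls of Cd180 held under all 17 alternatives tried for each, with adjusted p of at most 0.0211.

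Ly86, which encodes the partner MD-1 of CD180, did not move with it. Control libraries held 193.47, 193.27 and 153.09 FPKM at 0 h, 201.09, 185.31 and 195.58 FPKM at 24 h, and 199.69, 185.16 and 189.79 FPKM at 48 h. B-CKO libraries held 195.56, 201.36 and 172.21 FPKM at 0 h, 170.78, 175.62 and 174.51 FPKM at 24 h, and 191.03, 176.87 and 209.02 FPKM at 48 h. The times overlapped in control cells. In B-CKO cells the resting libraries overlapped both later times, and all 48 h libraries stood above all 24 h libraries. The log2 change from 0 h to 24 h was 0.12 (95% interval -0.13 to 0.37) in control and -0.12 (95% interval -0.29 to 0.04) in B-CKO cells, and neither passed (limma, adjusted p = 0.385 and 0.173). Without B-CKO library 3 at 0 h the B-CKO change was -0.19 (limma, adjusted p = 0.00987, range 0.00987 to 0.469 over 17 alternatives). After rescaling every library to the same FPKM total it was -0.29 (limma, adjusted p = 0.0146). That rescaling lowered genes well above 1 FPKM by 0.17 (log2) at 24 h against 0 h. From 24 h to 48 h the B-CKO change was 0.14 (limma, adjusted p = 0.0990), and 0.20 without B-CKO library 2 at 48 h (limma, adjusted p = 0.0169).

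The RNA ratio of these partners therefore widened. The ratio of Ly86 to Cd180 was 0.730 to 1.52 in the 6 resting libraries, 2.19 to 2.35 at 24 h and 3.47 to 4.89 at 48 h, with no overlap between times. It rose 2.05-fold from 0 h to 24 h and 1.72-fold from 24 h to 48 h, in 6 of 6 same-numbered pairs each time (exact permutation p = 0.005, the smallest possible, adjusted p = 0.008). Taken as 6 pairs by number, an exact sign-flip test of each step gave p = 0.0312, the smallest possible there, and an adjusted p of 0.05, which does not pass, and the same holds for the ratios that are called below. The ratio of Cd180 to Tlr4 went down, from 45.6 to 223 at 0 h to 33.1 to 37.2 at 24 h and 23.1 to 26.7 at 48 h. Its fall was 2.82-fold at the first step and 1.43-fold at the second step, in 6 of 6 pairs each (exact permutation p = 0.005, adjusted p = 0.008). At 0 h this ratio depended on the replicate number, being highest in library 3 of both genotypes. It was 46.2, 113 and 223 in control libraries 1 to 3 and 45.6, 84.5 and 219 in B-CKO libraries 1 to 3. The permutations and the sign flips both counted same-numbered libraries of the 2 genotypes as independent. Their p-values for the steps from 0 h may therefore be too small.

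**Figure D2:**
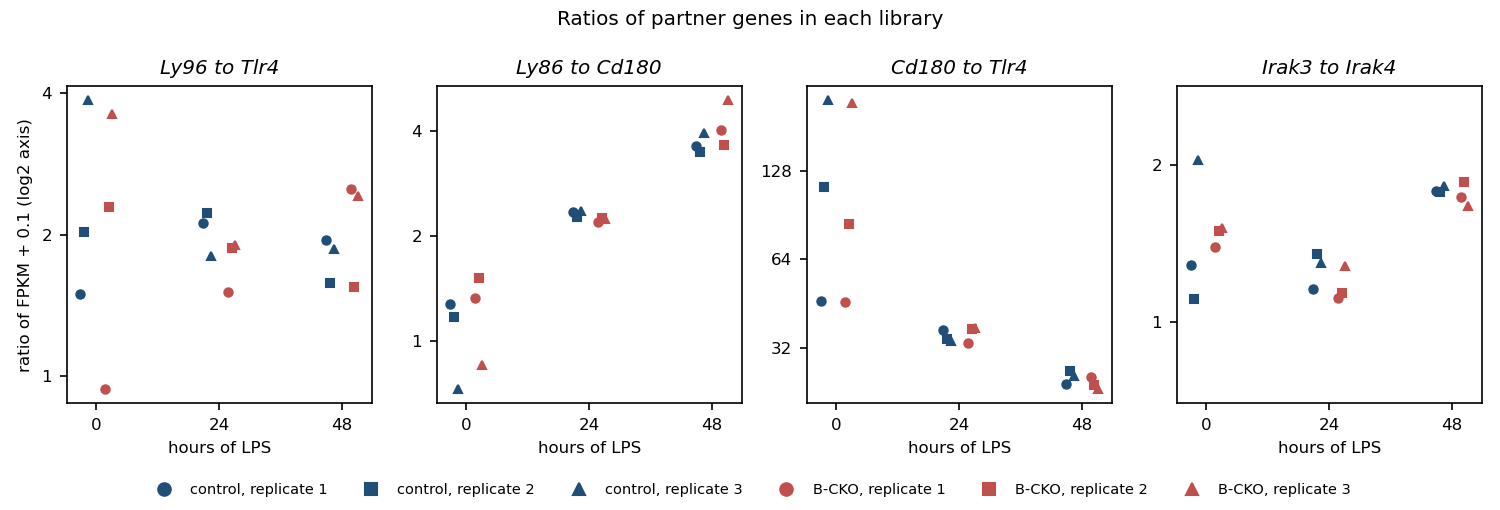
Ratios of FPKM + 0.1 in each library (log2 vertical axes) against hours of LPS, blue for control and red for B-CKO, with a symbol for each replicate number. Ly86 to Cd180 rises in steps without overlap (0.730 to 1.52, 2.19 to 2.35 and 3.47 to 4.89), Cd180 to Tlr4 falls, and Ly96 to Tlr4 overlaps across times.

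Cd180 and Ly86 lie on the same chromosome, far apart (chr13:102693547-102706631 and chr13:37345345-37419036, both on the plus strand, GRCm38.p6). Since their RNA parted during culture, the 250 bases before their annotated starts are shown, from the RefSeq promoters of that build, 5' to 3' on the strand of the gene. RefSeq windows were found for 7 of the 10 genes, as 9 windows because Cd180 and Irak3 have an alternative start, and for Cd180 the upstream window is given. Searched on both strands were the NF-kB consensus kB site, the octamer ATGCAAAT, the PU.1 core GAGGAAGT, the E-box CACGTG and the CCAAT box CCAAT, and matches are in capitals. Among 32841 windows of this length, 7.25% held the kB consensus, 1.60% the octamer, 2.44% the PU.1 core, 6.02% the E-box and 33.9% the CCAAT box. The Cd180 window (chr13:102693297-102693546, GC content 42.8%) held a CCAAT box on the minus strand, and the Ly86 window (chr13:37345095-37345344, GC content 50.0%) held none of these letters.
Cd180: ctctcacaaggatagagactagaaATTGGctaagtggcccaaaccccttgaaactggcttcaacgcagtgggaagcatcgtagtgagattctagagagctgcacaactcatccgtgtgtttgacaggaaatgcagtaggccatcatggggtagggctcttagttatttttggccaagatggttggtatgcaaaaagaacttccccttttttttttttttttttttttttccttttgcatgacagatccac
Ly86: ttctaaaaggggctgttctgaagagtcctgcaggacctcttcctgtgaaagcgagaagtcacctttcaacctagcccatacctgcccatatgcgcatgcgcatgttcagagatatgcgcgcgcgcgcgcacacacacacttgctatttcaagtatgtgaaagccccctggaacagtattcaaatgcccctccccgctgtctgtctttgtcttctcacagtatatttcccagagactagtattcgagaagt

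Both adaptors rose in the first 24 h. Myd88, the adaptor shared by most Toll-like receptors (NCBI gene 17874, chr9:119335934-119340018), was at 23.31, 22.68 and 23.12 FPKM in resting control cells, 38.65, 40.14 and 40.20 FPKM at 24 h, and 38.25, 38.99 and 39.12 FPKM at 48 h. In B-CKO cells it was at 25.42, 20.29 and 22.67 FPKM, then 38.36, 37.61 and 40.26 FPKM, then 37.24, 40.69 and 35.96 FPKM. Every cultured library was above every resting one, and 24 h and 48 h overlapped in both genotypes. The change to 24 h was 0.76 ± 0.05 (SE, log2) in control cells (limma, adjusted p = 4.95e-05) and 0.75 ± 0.09 (SE, log2) in B-CKO cells (limma, adjusted p = 0.000436). From 24 h to 48 h it was -0.03 in both (95% interval -0.10 to 0.04 in control and -0.16 to 0.10 in B-CKO cells, limma, adjusted p = 0.455 and 0.688).

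Ticam1, the adaptor TRIF that TLR4 uses from endosomes and TLR3 uses alone (NCBI gene 106759, chr17:56269462-56276767), rose more and then came partly back. Control libraries held 15.78, 13.27 and 9.45 FPKM at 0 h, 32.42, 31.42 and 32.09 FPKM at 24 h, and 25.84, 25.27 and 25.79 FPKM at 48 h. B-CKO libraries held 15.43, 12.38 and 10.70 FPKM at 0 h, 30.82, 28.83 and 29.28 FPKM at 24 h, and 23.69, 25.16 and 25.71 FPKM at 48 h. The 3 times did not overlap in either genotype. The first step was 1.28 ± 0.17 (SE, log2) in control cells (limma, adjusted p = 0.000907) and 1.16 ± 0.13 (SE, log2) in B-CKO cells (limma, adjusted p = 0.0003). The second step was -0.31 ± 0.03 (SE, log2) and -0.25 ± 0.05 (SE, log2) (limma, adjusted p = 0.000291 and 0.00419). These second-step falls did not pass in a single fit of all 18 libraries (adjusted p = 0.104 and 0.191). Over 48 h Ticam1 stood 1.96-fold higher in control and 1.89-fold higher in B-CKO cells.

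The promoters of these adaptors, the members that rose together, are given in the same way. The Myd88 window (chr9:119340019-119340268, minus strand, GC content 51.2%) held none of the 5 motifs. The Ticam1 window (chr17:56276768-56277017, minus strand, GC content 59.6%) held an E-box, which reads the same on both strands, at positions -135 to -130 from the start.
Myd88: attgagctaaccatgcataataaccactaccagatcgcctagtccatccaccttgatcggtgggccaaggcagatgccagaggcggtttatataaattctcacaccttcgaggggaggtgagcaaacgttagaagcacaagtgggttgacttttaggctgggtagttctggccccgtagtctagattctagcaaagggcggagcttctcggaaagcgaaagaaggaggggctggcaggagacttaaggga
Ticam1: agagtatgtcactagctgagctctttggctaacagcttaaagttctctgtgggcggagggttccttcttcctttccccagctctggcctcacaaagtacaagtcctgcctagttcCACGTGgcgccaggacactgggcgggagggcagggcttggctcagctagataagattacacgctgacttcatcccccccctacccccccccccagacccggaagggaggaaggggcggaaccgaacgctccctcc
Of the other windows, those of Irak4 and of 1 start of Irak3 held a CCAAT box, and that of the alternative Cd180 start, which overlaps the one shown, held the same box as it. No window of the 7 genes held the kB consensus, the octamer or the PU.1 core in these letters.

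**Figure D3:**
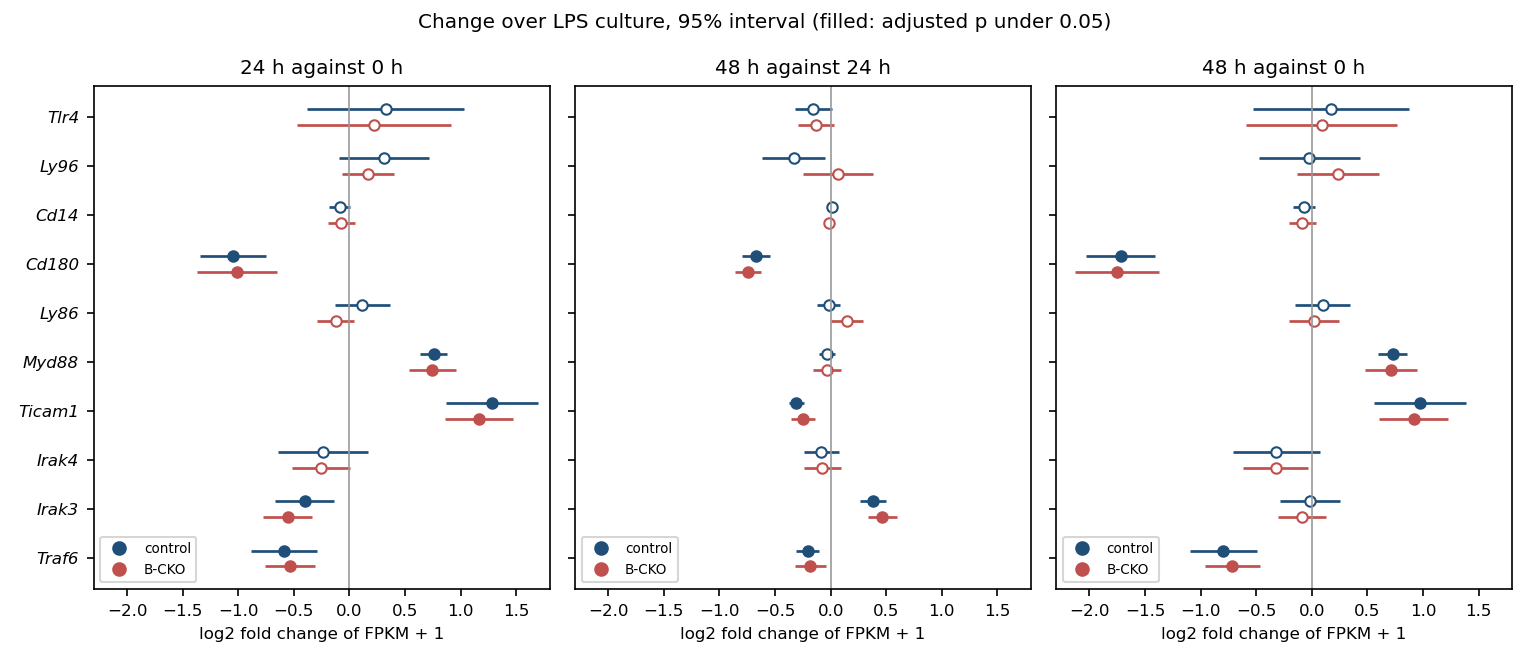
Log2 fold change of FPKM + 1 (horizontal axis) of the 10 genes for 3 steps of the culture, with 95% intervals, blue for control and red for B-CKO, filled where the limma adjusted p was under 0.05. Cd180 falls at both steps (-1.05 then -0.67 in control cells), Ticam1 rises then falls (1.28 then -0.31), and Irak3 falls then rises (-0.40 then 0.38).

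Downstream of MyD88, Irak3 and Traf6 were called over time in the main fits, and Irak4 was not. Irak4, the kinase that starts the cascade (NCBI gene 266632, chr15:94543613-94568317), was at 13.73, 12.59 and 8.77 FPKM in resting control cells, 10.36, 8.78 and 9.73 FPKM at 24 h, and 8.91, 8.78 and 9.36 FPKM at 48 h. In B-CKO cells it was at 13.31, 11.85 and 10.07 FPKM, then 10, 9.56 and 9.37 FPKM, then 8.97, 8.46 and 9.96 FPKM. Control libraries overlapped between times, and B-CKO library 3 at 0 h stood just above the highest cultured B-CKO library. The 24 h change was -0.24 ± 0.17 (SE, log2) in control cells (limma, adjusted p = 0.275) and -0.25 ± 0.11 (SE, log2) in B-CKO cells (limma, adjusted p = 0.0866), and the 48 h change from rest was -0.32 and -0.33 (limma, adjusted p = 0.141 and 0.0573). These calls moved with library 3 at 0 h and with the setting. Without that library the 24 h change was -0.42 in control (limma, adjusted p = 0.0123) and -0.35 in B-CKO cells (limma, adjusted p = 0.0133), within ranges over 17 alternatives of 0.0123 to 0.717 and 0.0133 to 0.311, and the 48 h change -0.50 (limma, adjusted p = 0.00349) and -0.42 (limma, adjusted p = 0.0197). With every library kept, the 48 h change was called in a single fit of all 18 libraries (limma, adjusted p = 0.0406 in control and 0.0380 in B-CKO cells) and, in B-CKO cells, when only genes averaging 1 FPKM or more were tested (adjusted p = 0.0344). After rescaling to the same FPKM total, the 48 h change was also called, at -0.53 and -0.55 (limma, adjusted p = 0.0240 and 0.00728), as was the B-CKO change at 24 h, at -0.42 (limma, adjusted p = 0.0164). That rescaling lowered genes well above 1 FPKM by 0.17 (log2) at 24 h and by 0.21 and 0.22 at 48 h.

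Irak3, the brake IRAK-M (NCBI gene 73914, chr10:120141648-120202130), fell at the first step and rose at the second. In resting control cells it was at 17.70, 13.99 and 17.99 FPKM, then at 12.03, 11.91 and 12.68 FPKM at 24 h and 15.99, 15.63 and 17.12 FPKM at 48 h. In B-CKO cells it was at 18.55, 17.74 and 15.29 FPKM, then 11.16, 10.87 and 12.05 FPKM, then 15.62, 15.80 and 16.69 FPKM. The 24 h libraries lay below all others of their genotype, and 48 h overlapped 0 h. The fall was -0.40 ± 0.11 (SE, log2) in control (limma, adjusted p = 0.0188) and -0.55 ± 0.09 (SE, log2) in B-CKO cells (limma, adjusted p = 0.00200). The return was 0.38 ± 0.05 (SE, log2) and 0.46 ± 0.05 (SE, log2) (limma, adjusted p = 0.000912 and 0.000525), and 48 h against 0 h gave -0.02 and -0.09 (limma, adjusted p = 0.896 and 0.434). After rescaling to the same FPKM total, the B-CKO change over 48 h was -0.31 and was called lower (limma, adjusted p = 0.0323). The fall in control cells did not pass without control library 1 or library 2 at 24 h (limma, adjusted p = 0.0647 and 0.0677). Its adjusted p ran up to 0.126 over 17 alternatives.

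The ratio of Irak3 to Irak4, the brake to the kinase, was 1.11 to 2.04 at 0 h, 1.11 to 1.35 at 24 h and 1.67 to 1.86 at 48 h. Its second step was a 1.45-fold rise in 6 of 6 pairs (exact permutation p = 0.005, adjusted p = 0.008, or 0.05 by sign flips over pairs), with no overlap between 24 h and 48 h. The first step, lower in 5 of 6 pairs, did not pass (log2 change -0.24, exact permutation p = 0.095, adjusted p = 0.127). Without control library 2 at 0 h that step was -0.34 (exact permutation, adjusted p = 0.02).

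Traf6, the ubiquitin ligase on which the MyD88 branch converges (NCBI gene 22034, chr2:101678420-101701668), fell. Control libraries held 14.59, 14.54 and 19.37 FPKM at 0 h, 10.19, 10.40 and 10.36 FPKM at 24 h, and 8.83, 8.57 and 9.01 FPKM at 48 h. B-CKO libraries held 13.92, 15.70 and 17.45 FPKM at 0 h, 10.23, 10.78 and 10.45 FPKM at 24 h, and 9.24, 9.63 and 8.54 FPKM at 48 h. No times overlapped in either genotype. The first step was -0.59 ± 0.12 (SE, log2) in control (limma, adjusted p = 0.00618) and -0.53 ± 0.09 (SE, log2) in B-CKO cells (limma, adjusted p = 0.00261). Without every library numbered 2 the control first step was -0.66 and was not called (limma, adjusted p = 0.0501). The second step was smaller, at -0.21 ± 0.04 (SE, log2) in control (limma, adjusted p = 0.00797) and -0.18 ± 0.06 (SE, log2) in B-CKO cells (limma, adjusted p = 0.0413). The control second step was not called in a single fit of all 18 libraries (limma, adjusted p = 0.122) or without every library numbered 2 or 3 (0.0642 and 0.0519). The B-CKO second step was not called in that single fit (limma, adjusted p = 0.170), without B-CKO library 1, 2 or 3 at 24 h or library 1 or 3 at 48 h (limma, adjusted p = 0.0771 to 0.129), or with the replicate number as a block (limma, adjusted p = 0.06).

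Counted over the 10 genes, 2 rose and 3 fell from 0 h to 24 h in control cells, where 26.7% of 15531 genes tested rose and 30.7% fell. In B-CKO cells 2 rose and 3 fell as well, against 27.5% and 32.3% of 15551 genes. Between 24 h and 48 h, 1 rose and 3 fell in control cells, where 20.1% of genes rose and 24.8% fell, and 1 rose and 3 fell in B-CKO cells, where 21.7% rose and 24% fell. From 0 h to 48 h, 2 rose and 2 fell in each genotype, against 26.5% and 30.3% of genes in control and 27.0% and 30.7% in B-CKO cells. These shares are near those of all genes. The median log2 change of the 10 genes was 0.01 at the first step in control cells and -0.10 in B-CKO cells, beside -0.02 over all genes tested in each. From 24 h to 48 h it was -0.119 in control and -0.052 in B-CKO cells, beside -0.005 and -0.002 over all genes. From 0 h to 48 h it was -0.021 and -0.033, beside -0.019 and -0.014. The genes called were the same in both genotypes at every step, with the same direction. The steps share libraries and are not independent of each other. Tlr4, Ly96, Cd14, Ly86 and Irak4 were called in none of these 6 comparisons.

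At 0 h, libraries of the same replicate number resembled each other across genotypes. Over genes averaging 1 FPKM or more, the deviations of control and B-CKO libraries from their group means correlated at 0.854, 0.468 and 0.789 for numbers 1, 2 and 3, against a mean of -0.342 between unlike numbers. What the numbers mark is not given in the sources used here. Of the variance of log2(FPKM + 1) of Tlr4 over the 6 resting libraries, 99.8% lay between numbers and 0.012% between genotypes. The share between numbers was 95% for Ticam1, 92.4% for Irak4, 88.2% for Traf6, 85.8% for Ly86 and 85.1% for Cd180, and lower for Myd88 (61.2%), Irak3 (32%) and Ly96 (17.7%). The median over these 9 genes was 85.8%, beside 77.9% over 9996 genes, so the genes were much like the rest of the table. The direction differed by gene. Tlr4 (3.80-fold), Ticam1 (1.55-fold), Irak4 (1.44-fold) and Ly86 (1.2-fold) were higher in number 1 than in number 3 when averaged over genotypes, while Cd180 and Traf6 were lower, at 0.727-fold and 0.774-fold. In culture the medians were 21.1% at 24 h and 47.6% at 48 h, beside 32.1% and 46.1% over all genes averaging 1 FPKM or more. The coefficient of variation within a group, with a median of 15.5% over these genes at 0 h, was 3.37% at 24 h and 5.89% at 48 h.

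**Figure D4:**
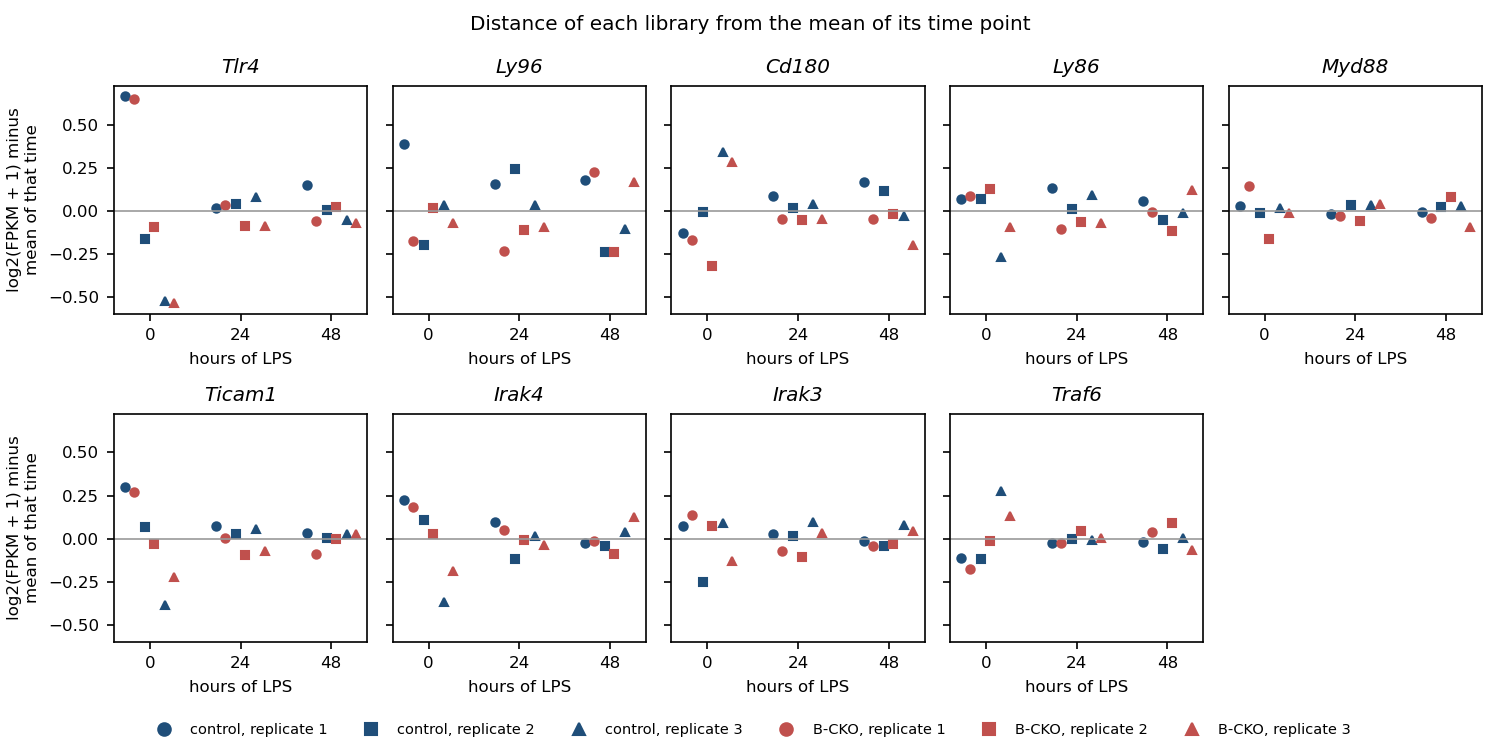
Distance of log2(FPKM + 1) in each library from the mean of the 6 libraries of its time (vertical axis) against hours of LPS for the 9 genes above 0 in every library, with symbols for replicate numbers 1 to 3, blue for control and red for B-CKO. At 0 h the same symbols of both colours sit together for Tlr4, Ticam1, Irak4 and Cd180. In culture the points close in on 0, but only a little for Ly96 (log2 range 0.587, 0.475 and 0.462 at 0 h, 24 h and 48 h).

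Genotype was compared at each time to ask whether the levels of these genes differed in B-CKO cells. None of the 10 genes was called. At 0 h, limma called 0% of 15641 genes, and 313 genes and 0 members had an unadjusted p under 0.05. Every resting range of B-CKO libraries overlapped that of control libraries, where 1.94% of genes lay wholly below and 1.92% wholly above. The Tlr4 difference (B-CKO minus control) was 0.01 with a 95% interval of -0.96 to 0.98 on the log2 scale. With the replicate number as a block, which fits the pairing seen at 0 h, the interval narrowed to -0.18 to 0.20. For Ticam1 it narrowed from -0.50 to 0.53 to -0.19 to 0.21, and for Cd180 from -0.60 to 0.33 to -0.33 to 0.05.

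At 24 h, 4 of the 10 genes lay wholly below control in the B-CKO libraries, namely Ly86, Cd180, Ticam1 and Ly96, where 11.7% of 15104 genes did so. None lay wholly above, where 8.43% of genes did. The Ly96 libraries were 3.46 to 3.90 FPKM in B-CKO and 4.35 to 5.2 FPKM in control cells, a log2 difference of -0.29 ± 0.08 (SE). For Ly86 they were 170.78 to 175.62 against 185.31 to 201.09 FPKM, a difference of -0.16 ± 0.03 (SE). For Cd180 they were 77.87 to 77.97 against 81.48 to 85.81 FPKM, and for Ticam1 28.83 to 30.82 against 31.42 to 32.42 FPKM, differences of -0.10 ± 0.03 (SE) and -0.11 ± 0.03 (SE). All 4 had an unadjusted limma p under 0.05 (0.00277 to 0.0144), as did 2463 genes, and none passed adjustment (limma, adjusted p = 0.113 for Ly86, 0.146 for Ly96, 0.146 for Cd180 and 0.183 for Ticam1). In that comparison 0.0993% of genes were called. The summed dendritic cell markers also stood apart by genotype at this time (6.8 to 7.36 FPKM in control and 9.31 to 10 FPKM in B-CKO cells), nearly all of it Flt3 (6.39 to 9.49 FPKM), while Itgax, Xcr1, Clec9a and Siglech stayed under 1 FPKM. The sum of the 7 B cell markers was lower in B-CKO cells without overlap (1999 to 2067 against 2154 to 2317 FPKM), the direction of these 4 genes. The part of either in the member values was not tested.

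These differences were small and near the threshold. Tested only on the 9711 genes averaging 1 FPKM or more, Ly86 was called lower (limma, adjusted p = 0.0452), where 3.05% of genes were. With the replicate block added, Ly86 and Ly96 were called lower (limma, adjusted p = 0.0454 and 0.0470), where 5.11% of genes were, an alternative chosen after seeing the data. Over 17 alternatives the adjusted p ran from 0.0452 to 1 for Ly86 and from 0.0470 to 1 for Ly96. Leaving out any 1 library at 24 h gave no call.

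At 48 h none of the 10 genes lay wholly below or above control, where 6.24% and 4.89% of genes did. Limma called 0.046% of 15210 genes and none of the 10, and 1 of them, Cd180, had an unadjusted p under 0.05, as did 1172 genes. The Cd180 difference was -0.17 ± 0.07 (SE, log2) (limma, adjusted p = 0.622), with 42.65 to 48.52 FPKM in B-CKO and 48.13 to 55.14 FPKM in control cells. The Ly86 difference, -0.16 at 24 h, was 0.00 at 48 h with a 95% interval of -0.15 to 0.16.

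The change over time was also compared between genotypes in a test of the difference itself. Limma called 0% of genes for each of the 3 steps, and no member had an unadjusted p under 0.05 for any step, beside 467, 1158 and 422 genes over the table for 0 h to 24 h, 24 h to 48 h and 0 h to 48 h. The widest difference was that of Ly96 from 24 h to 48 h, 0.40 ± 0.19 (SE, log2) higher in B-CKO cells (limma, adjusted p = 0.692). For the 0 h to 24 h change of Tlr4 the 95% interval of the difference ran from -1.1 to 0.89, and for Cd180 from -0.42 to 0.50. With the replicate number as a block within each time, an alternative chosen after seeing the data, these intervals narrowed to -0.32 to 0.11 and -0.15 to 0.23. In that fit the Ly96 difference from 24 h to 48 h (0.40) and the Ly86 difference from 0 h to 24 h (-0.24) had an unadjusted p under 0.05, and neither passed adjustment (limma, adjusted p = 0.356 and 0.434).

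**Figure D5:**
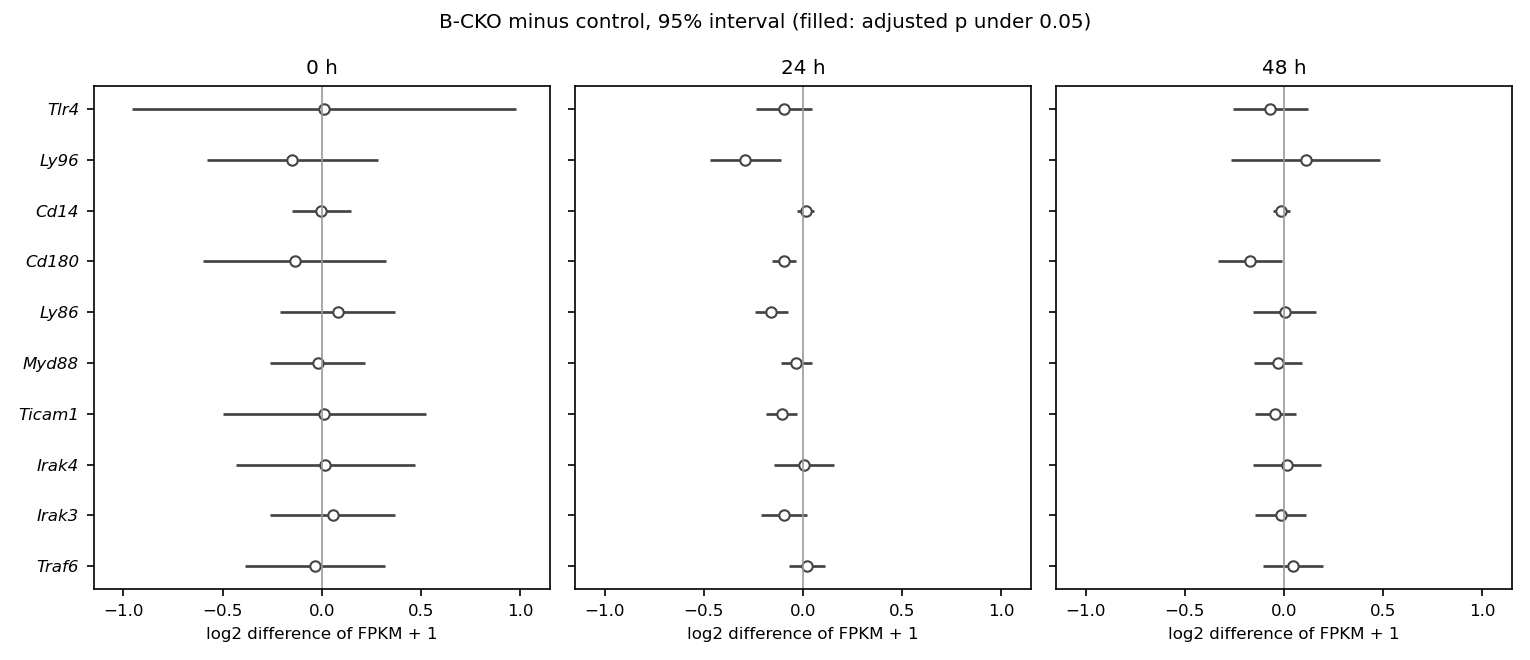
B-CKO minus control on the log2(FPKM + 1) scale (horizontal axis) for the 10 genes, 1 panel per time (0 h, 24 h, 48 h), with 95% limma intervals without a replicate block; filled points would mark an adjusted p under 0.05, and none is filled. At 24 h the intervals of Ly96, Cd180, Ly86 and Ticam1 lie below 0, with differences of -0.29 to -0.10.

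Genes with the pattern most like Tlr4 and Cd180 were named by Pearson's r of log2(FPKM + 1) over the 18 libraries, among the 9997 genes averaging 1 FPKM or more. For Tlr4 these were Zfp217 (r = 0.983), Pi4kb (r = 0.943) and Med26 (r = 0.939). Zfp217 carried the same gradient over replicate numbers at 0 h, with means of 24.1, 11.6 and 7.66 FPKM for numbers 1, 2 and 3, and a mean of 15.9 FPKM at 24 h. For Cd180 they were Ccdc9 (r = 0.993), Map2k7 (r = 0.991) and Pax5 (r = 0.990), a transcription factor that keeps B cell identity. Pax5 averaged 233 FPKM at 0 h, 144 FPKM at 24 h and 96.3 FPKM at 48 h. These r describe likeness over libraries that share time points, and carry no test.

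The wider pathway was read from 44 further genes listed by role, of which 43 were in the table. From 0 h to 24 h in control cells 7 of 43 rose, 14 fell and 22 were not called (26.7% and 30.7% of all genes rose and fell), with a median log2 change of -0.05 beside -0.02 over all genes. In B-CKO cells 9 rose and 17 fell, beside 27.5% and 32.3% of all genes. Between 24 h and 48 h, 8 rose and 22 fell in control cells (20.1% and 24.8% of all genes), and 7 rose and 17 fell in B-CKO cells (21.7% and 24%). From 0 h to 48 h it was 7 and 18 in control (26.5% and 30.3% of all genes) and 8 and 24 in B-CKO cells (27% and 30.7%). None of the 43 was called between genotypes at any time or in the change over time.

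Ticam2 (TRAM), which bridges TLR4 to TRIF, rose most of the list, by 1.59 ± 0.19 (SE, log2) from 0 h to 24 h in control cells (limma, adjusted p = 0.000511). Its means were 1.55, 6.52 and 11.5 FPKM at 0 h, 24 h and 48 h in control and 2.01, 7.19 and 13.0 FPKM in B-CKO cells, so it rose at the second step too (0.73 and 0.78), when Ticam1 fell. Of 4 other adaptors, it alone was called at the first step in control cells, where 26.7% of all genes rose and 30.7% fell. Ube2n (UBC13), the ubiquitin-conjugating enzyme that works with TRAF6, rose by 1.37 ± 0.08 (SE, log2) (limma, adjusted p = 2.93e-05), from a mean of 20.4 to 54.4 FPKM, while Traf6 fell. Trim30a, listed among the brakes, rose by 1.28 ± 0.09 (SE, log2) (limma, adjusted p = 5.27e-05), from 34.9 to 85.9 FPKM. Irak1bp1, an IRAK1-binding protein, rose by 1.06 ± 0.12 (SE, log2) (limma, adjusted p = 0.000531), from 0.63 to 2.37 FPKM.

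Of the 8 brakes listed, 4 fell at the first step in control cells, where 30.7% of all genes fell. Tnfaip3 (A20), an ubiquitin-editing enzyme that restrains NF-kB, fell by 1.43 ± 0.47 (SE, log2) (limma, adjusted p = 0.0378), but its resting values were uneven, at 43.83, 144.21 and 149.47 FPKM in control and 53.38, 135.25 and 106.55 FPKM in B-CKO cells. At 24 h they were 33.99 to 38.08 FPKM in control cells. Sigirr, an inhibitory IL-1 receptor relative, fell by 1.34 ± 0.15 (SE, log2) (limma, adjusted p = 0.000451), from a mean of 18.4 to 6.57 FPKM. Of the 10 genes of the IKK and TBK1 branches 5 fell and 1 rose, beside 30.7% and 26.7% of all genes. The one that rose was Irf7, an interferon regulatory factor named here after its values were seen because the count is small, at 1.05 ± 0.11 (SE, log2) in control cells (limma, adjusted p = 0.000302) and 0.19 ± 0.09 (SE, log2) in B-CKO cells (limma, adjusted p = 0.115), and the difference in its change was not called (-0.86, limma, adjusted p = 0.583). At 24 h Irf7 was at 28.94 to 32.89 FPKM in B-CKO and 43.09 to 48.63 FPKM in control cells, without overlap, a difference of -0.55 ± 0.06 (SE, log2) that lay just outside the threshold (limma, adjusted p = 0.0554). Among those that fell were Map3k8 (TPL2), a kinase upstream of ERK, by 1.27 ± 0.10 (SE, log2) (limma, adjusted p = 8.49e-05), and Ikbkb (IKK2), by 1.13 ± 0.06 (SE, log2) (limma, adjusted p = 2.79e-05), from 80.8 to 36.5 FPKM. In B-CKO cells the first-step changes of these genes had the same signs, and each but that of Irf7 was called.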

How the data were processed

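Purified splenic B cells were sequenced in 3 libraries per genotype and time (0 h, 24 h, 48 h). The authors mapped reads to mm10, quantified genes with RSEM and deposited FPKM with 2 decimals; their notes and methods name BWA and Bowtie2 as aligners, and read totals were not used here. Of 16545 NCBI gene IDs, 16512 matched a symbol. Because FPKM are not counts, log2(FPKM + 1) was tested with limma 3.58.1 (R 4.3.3, trend on) on genes above 0 in any library compared, with 2 groups per fit, 4 for differences in change, and Benjamini-Hochberg adjustment over all genes tested at 0.05. The method was tested on simulated data, and the outcome is not given here. Ratios used exact permutation tests (Python 3.11.15). The p-values measure the spread between libraries of a group, each from 1 mouse. At 0 h most of that spread lay between replicate numbers, as given above, and what the numbers mark is not stated. The spread at 0 h is therefore not one between mice alone.

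The 10 genes, the pathway and marker lists and the tests were chosen with earlier results of these data known. Named were all 10 members, the 4 pathway genes that rose and the 4 that fell most in control cells from 0 h to 24 h, any called between genotypes, and the 3 genes most like Tlr4 and Cd180. Irf7 was named outside this rule, after its values were seen. A listed B cell marker is not reported here. Same-numbered libraries paired across genotypes at 0 h (deviations correlated at 0.468 to 0.854), and in B-CKO cells from 24 h to 48 h (0.117 to 0.183), as a property of the data; the labels do not state a pairing. Exons of Cd180, Myd88, Irak3 and Irak4 share 182, 290, 192 and 395 bases with genes on the other strand (Mast4, Acaa1a, Tmbim4 and Twf1, GENCODE M21), whose reads cannot be told apart without strand. Alternatives were another pseudocount (0.1), filter (mean of at least 1 FPKM), scaling, fit, block, and leaving out libraries.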

Additional observations from a re-analysis of the deposited data

How the results depend on the processing

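Of 26 calls of members over time, 20 held under every alternative run for them, and no call changed direction. The other 6 were those of Irak3 and Traf6 in control cells at the first step and of Ticam1 and Traf6 in both genotypes at the second step. A single fit of all 18 libraries called 2 members from 24 h to 48 h in control and 2 in B-CKO cells, against 4 each. Without every library of replicate 1, 2 members were called in B-CKO cells at that step. For B-CKO against control at 24 h, 1 member was called when only genes averaging 1 FPKM or more were tested, and 2 with the replicate block as well, against 0. The replicate block alone removed 1 call, Traf6 from 24 h to 48 h in B-CKO cells (-0.18, limma, adjusted p = 0.0600), leaving 3, and changed no other call of a member. Deviations of same-numbered libraries correlated over 0.1 in all 3 pairs at 0 h across genotypes and, within B-CKO cells, between 24 h and 48 h (0.126, 0.183 and 0.117), the step of that Traf6 call. In the other steps and times at least 1 pair was lower. For the ratios, sign flips over 6 same-numbered pairs as a replicate block gave an adjusted p of 0.05 at best, so the changes of 1.03 and 0.78 (Ly86 to Cd180), -1.50 and -0.51 (Cd180 to Tlr4) and 0.54 (Irak3 to Irak4) did not fall below it; 6 pairs allow no p under 0.0312. Leaving out 1 library at a time, the Irak3 to Irak4 change from 0 h to 24 h ran from -0.34 to -0.12 (exact permutation, adjusted p = 0.02 to 0.313). The members called in control cells then numbered 4 to 7 (0 h to 24 h), 4 to 6 (24 h to 48 h) and 4 to 5 (0 h to 48 h), and in B-CKO cells 5 to 7, 3 to 5 and 4 to 5, with 0 between genotypes. In the main fits over time 20.1% to 27.5% of all genes rose and 24% to 32.3% fell. The shares with libraries left out or in the single fit are not given here, so these counts are no trait of the members. The causes were not tested. Rescaling to the same FPKM total lowered genes well above 1 FPKM by 0.17 (log2) at 24 h and by 0.21 to 0.22 at 48 h, each against 0 h. Limits are the low FPKM of Tlr4, Ly96 and Cd14, the unknown depth, 3 libraries per group and the wide spread at 0 h.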
